A study of Mus musculus with 143 samples.

Results

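The genes described here are 10 members of the machinery that builds a spindle without centrosomes in the oocyte: the Aurora kinases Aurka, Aurkb and Aurkc, the chromosomal passenger partners Incenp and Birc5, the kinase activator Tpx2, the microtubule proteins Tacc3 and Ckap5, the motor Kif11 and the pole organiser Numa1. They were chosen by name, with earlier results of these data known, and followed in every count file, among 55573 gene IDs of the poly(A) count tables and 55487 of the RiboMinus ones. All 10 passed the filter on low counts in every fit. The samples were single mouse oocytes of control genotype or lacking Dis3 (dis3cKO in the labels, here Dis3 cKO for conditional knockout), Exosc10 (exo10cKO, here Exosc10 cKO) or both genes (dcKO). DIS3 and EXOSC10 are ribonucleases of the RNA exosome, the complex that trims and degrades nuclear RNA.

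In poly(A) sequencing, RNA was captured on oligo-dT from germinal vesicle (GV) oocytes of control (8 libraries) and Dis3 cKO (15), from oocytes cultured for 3 h (GV3h, 8 and 16) and from metaphase II (MII) eggs taken from oviducts after superovulation (8 and 16). RiboMinus sequencing, which primes total RNA after removal of ribosomal RNA, covered 2 groups of adult GV oocytes, control and Dis3 cKO, and 4 groups labelled p20 (day 20 after birth), control, each single knockout and the dcKO, with 8 libraries in each. The mutant mice were made with CRISPR/Cas9, per the labels, which name no Cre driver, no strain and no adult age, and do not say how many females gave oocytes. RiboMinus titles carry 2 tags in each group, whose meaning is not stated, and p-values over oocytes measure the spread between oocytes only. CUT&Tag, which cuts chromatin where an antibody sits, was run on bulk oocytes, 3 libraries to a group, with 12 libraries titled k27me3 (histone mark H3K27me3) and 9 titled pols2s5, which are read here as RNA polymerase II (Pol II), since no label describes the antibody.

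As background, a mouse oocyte has no centrioles: microtubules grow from acentriolar organising centres and around the chromosomes and are sorted into a bipolar spindle by motors. Aurora A (AURKA) acts at the organising centres and poles and is activated by TPX2. It phosphorylates TACC3, which with the microtubule polymerase CKAP5 forms part of the spindle's liquid-like domain. Aurora B (AURKB) and the germ-cell kinase Aurora C (AURKC) bind INCENP and survivin (BIRC5) in the chromosomal passenger complex, which corrects wrong chromosome attachments. KIF11 slides antiparallel microtubules apart, and NUMA1 focuses the poles. Fully grown oocytes are nearly silent in transcription, so their messages are stored, and lengthening or shortening of the poly(A) tail during maturation selects which are translated or degraded.

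RefSeq, in the assembly GRCm38.p6, places Aurka (ENSMUSG00000027496) at chr2:172356190-172370886, Aurkb (ENSMUSG00000020897) at chr11:69045624-69051664 and Aurkc (ENSMUSG00000070837) at chr7:6995347-7003091. Incenp (ENSMUSG00000024660) lies at chr19:9872295-9899489, Birc5 (ENSMUSG00000017716) at chr11:117849237-117855743 and Tpx2 (ENSMUSG00000027469) at chr2:152847964-152895321. Tacc3 (ENSMUSG00000037313) spans chr5:33658128-33672203, Ckap5 (ENSMUSG00000040549) chr2:91526747-91620679, Kif11 (ENSMUSG00000012443) chr19:37376382-37421863 and Numa1 (ENSMUSG00000066306) chr7:101933977-102014959. All are protein-coding. The submitters' processing notes name mm10, which is the same assembly. Annotated neighbours overlap Aurka (Cstf1), Tpx2 (Mir5622), Incenp (Gm19054), Kif11 (Gm8663 and Gm46649), Numa1 (Gm8523 and Gm39061) and Ckap5 (Snord67 and F2). Use of strand in counting is not given in the sources used here, so reads of these 6 members and of their neighbours cannot be told apart where they overlap.

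Sequence before the start is shown for 4 members that the results turn on: Tacc3 and Ckap5, which were lower in several comparisons of Dis3 cKO with control, Kif11, the member that was higher in several knockout comparisons, and Aurkc, which rose most from GV to MII relative to other messages. The RefSeq promoter table takes 1 start for each of the 7 members it holds, and that start need not be the edge of the gene's span. It is the edge for Tacc3, Kif11 and Birc5, and lies 38 bases inside the span for Aurkc, 15 for Ckap5, 316 for Aurka and 35866 for Numa1. Only the bases that lie outside the span are shown, 250 for Tacc3 and Kif11, 212 for Aurkc and 235 for Ckap5, and none for Aurka, whose window of 250 bases lies inside its span. Each is read 5′ to 3′ on the gene's own strand. Capitals mark matches to TTTGAA, the core of the cell cycle homology region of G2/M promoters, and to CCAAT, on either strand (TTCAAA and ATTGG on the other strand).
Aurkc: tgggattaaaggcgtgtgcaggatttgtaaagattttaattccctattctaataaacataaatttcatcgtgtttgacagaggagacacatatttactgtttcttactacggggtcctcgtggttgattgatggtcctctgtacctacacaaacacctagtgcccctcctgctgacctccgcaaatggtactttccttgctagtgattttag
Kif11: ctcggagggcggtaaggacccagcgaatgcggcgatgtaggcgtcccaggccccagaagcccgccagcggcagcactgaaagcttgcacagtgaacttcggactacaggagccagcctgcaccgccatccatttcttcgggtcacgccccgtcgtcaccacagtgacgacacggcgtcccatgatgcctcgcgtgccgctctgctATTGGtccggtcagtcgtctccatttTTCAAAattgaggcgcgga
Tacc3: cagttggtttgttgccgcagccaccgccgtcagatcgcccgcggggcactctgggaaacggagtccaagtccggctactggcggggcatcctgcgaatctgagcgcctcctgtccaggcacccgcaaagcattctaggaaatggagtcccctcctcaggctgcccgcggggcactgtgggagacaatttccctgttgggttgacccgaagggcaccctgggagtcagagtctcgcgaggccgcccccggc
Ckap5: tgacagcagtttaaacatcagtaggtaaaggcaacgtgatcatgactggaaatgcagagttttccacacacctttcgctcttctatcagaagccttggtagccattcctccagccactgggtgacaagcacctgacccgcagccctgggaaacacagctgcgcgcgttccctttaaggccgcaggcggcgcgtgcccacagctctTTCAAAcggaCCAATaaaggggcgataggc
They are RefSeq sequences of GRCm38.p6 on the plus strand: chr7:6995135-6995346 for Aurkc, chr19:37376132-37376381 for Kif11, chr5:33657878-33658127 for Tacc3 and chr2:91526512-91526746 for Ckap5. In the full windows of 250 bases of the 7 members, TTTGAA was found in Kif11 and Ckap5 and CCAAT in Aurka, Kif11 and Ckap5, with no overlap between the motifs. Over all 32851 promoters of this length, 16.0% held TTTGAA and 33.8% held CCAAT. A match is a description of the letters, not of a bound factor. The G and C content of the full window was 65.6% in Tacc3, 62.0% in Kif11, 55.2% in Ckap5 and 44.8% in Aurkc.

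The 71 poly(A) libraries held 4843964 to 15412200 gene counts each, and the 48 RiboMinus libraries 8492102 to 35429028. Dis3 itself fell by 2.18 to 3.63 on the log2 scale in each group labelled Dis3 cKO or dcKO against its control, and Exosc10 fell by 5.22 in Exosc10 cKO and fell by 4.01 in dcKO. Its level in Exosc10 cKO oocytes was 0.347 to 10.5 CPM against 102 to 138 CPM in p20 controls. Control levels of Dis3 differed between tags without overlap, at 19.7 to 22.6 CPM under AM1758 and 8.91 to 12.1 CPM under AM1759 in adult oocytes and at 15.7 to 20.1 CPM under tag 1 and 6.20 to 12.1 CPM under tag 2 at p20. All 10 oocyte markers examined, Gdf9 and Bmp15 among them, were detected in every group. The summed CPM of 12 granulosa and cumulus markers was 37.8 to 222 in poly(A) and 74.6 to 175 in RiboMinus libraries, against 8047 or more for the oocyte markers, and Nr5a2 or Cyp19a1 led that sum. At MII that sum was 81.7 to 181 CPM in control and 49.6 to 78.7 CPM in Dis3 cKO eggs, without overlap, and at GV3h 66.4 to 96.8 and 37.8 to 74.8 CPM. Its part in the member results was not tested. In poly(A) libraries the median was 0 CPM for Amh, Foxl2, Amhr2, Ptx3 and Tnfaip6 and 0.224 to 38.1 CPM for the other 7, and Inha and Gja1 reached 73.0 and 71.8 CPM in a library. In RiboMinus libraries Amh had a median of 0.769 CPM and Inha 1.05 CPM. By correlation with their own group, 13 libraries stood apart: GV control 1 and 2, GV Dis3 cKO 6 and 8, MII Dis3 cKO 7, 11, 12 and 15, adult GV Dis3 cKO AM1713_1, and 2_1 and 2_4 of both the p20 control and the Exosc10 cKO. Member calls that change without them are given both ways. The GV3h Dis3 cKO libraries 15 and 16 correlated with each other at 0.994, where other poly(A) libraries reached at most 0.982 within their group. Their ratios of gene to ERCC counts were 183 and 186. Whether both came from the same oocyte was not tested, and all GV3h tests and counts of oocytes include both. The fit of title numbers 1 to 8 alone leaves both out, and 5 members passed there at GV3h in edgeR.

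Levels are CPM (counts per 1000000 gene counts after TMM scaling), which are relative to all other genes of the library. They are compared only within a gene, since no exon lengths were used here. Synthetic ERCC RNAs were added to each poly(A) lysate in equal amount, per the labels' protocols, and ERCC counts are also deposited for RiboMinus libraries. Scaling to them gives a second reading, per added ERCC RNA. Whether equal amounts were added to RiboMinus lysates is not given in the sources used here, so ERCC-scaled RiboMinus values hold only if they were. The 2 readings differ most between GV and MII and between ages. The ratio of gene to ERCC counts averaged 137 ± 16.2 in GV control and 46.0 ± 3.43 in MII control libraries (SD, n = 8 each), and the median over all genes of the log2 change from GV to MII moved from -0.27 with TMM to -2.12 with ERCC scaling. From p20 to adult it moved from 0.00 to -1.69 in control and from 0.04 to -1.86 in Dis3 cKO. For knockout effects the ERCC median was -0.23 at GV, 0.04 at GV3h, 0.52 at MII, -0.52 in adult RiboMinus oocytes and -0.31 in Dis3 cKO and -0.08 in dcKO oocytes at p20. In oligo-dT libraries less RNA and shorter tails cannot be told apart.

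Several spindle assembly messages were lower in Dis3 cKO than in control oocytes, relative to other messages, at all 3 poly(A) stages and in adult RiboMinus oocytes, while at p20 Aurka alone was. With counts summed per title tag, 0 members passed in edgeR in adult (lowest adjusted p = 0.139) or p20 Dis3 cKO (0.222). The p20 Aurka call was also lost without the libraries that stood apart (adjusted p = 0.0519) and with title tag and number as a block (0.0598). At GV, 3 of 10 members fell in Dis3 cKO and 0 rose (Aurka, Tacc3 and Ckap5), where 21.9% of 17389 genes passed (8.33% lower). Without the 8 poly(A) libraries that stood apart, 4 of them GV and 4 MII, in the shared fit, 7 passed, 6 lower (Tpx2, Incenp and Numa1 besides) and Kif11 higher. At GV3h, 6 passed, Kif11 higher and Aurka, Incenp, Tpx2, Tacc3 and Ckap5 lower, against 38.6% of all genes (22.9% higher, 15.7% lower). At MII, 4 passed, Birc5 higher and Tacc3, Ckap5 and Numa1 lower, against 42.1% of all genes (27.3% higher, 14.8% lower), a share near that of the members. Adjusted p-values come from the quasi-likelihood F test of edgeR, adjusted by Benjamini-Hochberg over all genes tested, and passing means an adjusted p under 0.05. In all 3 comparisons the median log2 change of the members lay below that of all genes: -0.14 against 0.04 at GV, -0.26 against 0.07 at GV3h and 0.00 against 0.16 at MII. With ERCC scaling the member calls were 3 lower at GV, 2 lower at GV3h and 4 higher at MII (Aurkb, Aurkc, Incenp and Birc5), against 20.6%, 28.2% and 41.9% of all genes (13.3% lower, 10.6% lower and 37.6% higher). The 3 comparisons share no libraries, but they share a fit and its estimate of the spread. Whether they share females is not stated.

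**Figure D1:**
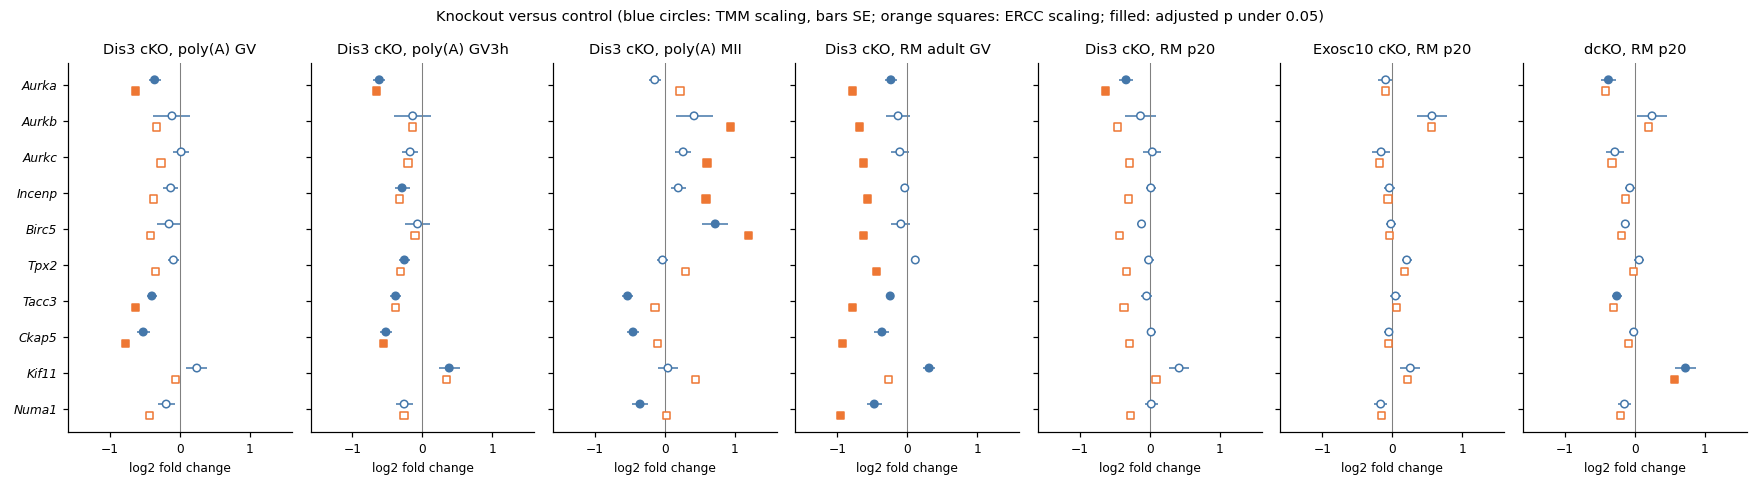
Log2 fold change of each member (rows) in 7 knockout comparisons (panels), with TMM scaling (blue circles, bars are SE) and with ERCC scaling (orange squares, no error drawn). Filled symbols passed an adjusted p of 0.05 in edgeR. Aurka, Tacc3 and Ckap5 lie left of 0 with TMM in the 3 poly(A) panels and in adult RiboMinus oocytes, and Kif11 lies right of 0 in all 7 panels with TMM.

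Aurka, the pole kinase, was lower in Dis3 cKO oocytes before maturation was complete. In poly(A) GV controls its level was 223 to 348 CPM (median 297) and in GV Dis3 cKO 157 to 279 CPM (median 209). The ranges overlapped, and all 15 knockout oocytes lay below the control mean. The log2 change was -0.36 (SE 0.09, adjusted p = 0.00083, edgeR), and with only the oocytes whose title number is 1 to 8 it was -0.24 and just missed (adjusted p = 0.0502). At GV3h controls held 253 to 331 CPM (median 288) and Dis3 cKO oocytes 153 to 223 CPM (median 192). Every one of the 16 knockout oocytes lay below every control, with a log2 change of -0.62 (SE 0.08, adjusted p = 1.23e-08). In MII eggs the levels were 161 to 238 CPM (median 224) in controls and 157 to 246 CPM (median 188) in Dis3 cKO, a log2 difference of -0.15 that did not pass (adjusted p = 0.164). ERCC scaling gave -0.64 at GV, -0.65 at GV3h and 0.22 at MII. The Dis3 effect at MII did not differ from that at GV with TMM (0.22, adjusted p = 0.247), but it did with ERCC scaling (0.85, adjusted p = 0.00244).

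RiboMinus libraries also gave lower Aurka in Dis3 cKO and dcKO oocytes. Adult GV levels were 205 to 295 CPM (median 238) in control and 169 to 249 CPM (median 198) in Dis3 cKO oocytes. The log2 change was -0.24 (SE 0.09, adjusted p = 0.0451), and without the library AM1713_1 it was -0.22 and no longer passed (adjusted p = 0.0769). The call was also lost without the filter on low counts (adjusted p = 0.0645) and with counts summed per tag (adjusted p = 0.405), and ERCC scaling gave -0.79 (adjusted p = 0.00112). Within the knockout, the 4 oocytes tagged AM1713 held 169 to 192 CPM and the 4 tagged AM1757 held 204 to 249 CPM, without overlap, while the control tags AM1758 and AM1759 held 218 to 295 and 205 to 269.8 CPM. At p20, Aurka was 144 to 255 CPM (median 182) in controls, 117 to 204 CPM (median 146) in Dis3 cKO, 149 to 200.4 CPM (median 176) in Exosc10 cKO and 108 to 165 CPM (median 146) in dcKO. The Dis3 cKO group overlapped the control and its log2 change was -0.34 (SE 0.10, adjusted p = 0.0382). Without the 4 p20 libraries that stood apart, 2 control and 2 Exosc10 cKO, the change was -0.32 with an adjusted p of 0.0519, and with the title tag and number as a block it was -0.33 with an adjusted p of 0.0598. The dcKO changed by -0.38 (SE 0.10, adjusted p = 0.00274), with all 8 oocytes below the control mean (-0.42 with ERCC scaling, adjusted p = 0.0541), and Exosc10 cKO by -0.10 (adjusted p = 0.666). dcKO against Exosc10 cKO gave -0.28 (adjusted p = 0.0247), and -0.23 with an adjusted p of 0.0616 without the libraries that stood apart.

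Aurkb, the passenger kinase of somatic cells, had the fewest reads of the set in poly(A) files. Its level was 5.94 to 28.8 CPM in GV control, 7.88 to 19.2 CPM in GV Dis3 cKO, 11.9 to 21.3 and 8.04 to 20.7 CPM at GV3h, and 7.82 to 22.2 and 0.825 to 39.5 CPM in MII control and Dis3 cKO. The lowest count was 6 reads, in MII Dis3 cKO egg 15, and the highest 435 reads, in egg 7, both of which stood apart. With TMM in the fit of all groups no knockout comparison of Aurkb passed, with log2 changes from -0.14 to 0.57. The largest was in p20 Exosc10 cKO, where 13.8 to 27.4 CPM faced 9.59 to 18.3 CPM in controls (adjusted p = 0.105), and a fit of these 2 groups alone called it (0.57, adjusted p = 0.0325). With counts summed per tag it did not pass (0.56, adjusted p = 0.580). Within Exosc10 cKO, oocytes of tag 1 held 22.2 to 27.4 CPM and those of tag 2 13.8 to 21.5 CPM. The p20 dcKO also split by tag without overlap, at 8.07 to 13.4 CPM under tag 1 and 17.7 to 30.4 CPM under tag 2. ERCC scaling called Aurkb higher in MII Dis3 cKO eggs (0.94, adjusted p = 0.0303) and lower in adult RiboMinus Dis3 cKO oocytes (-0.68, adjusted p = 0.0164).

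Aurkc, the kinase restricted to germ cells, passed in no comparison of a knockout with its control in the fit of all groups with TMM and showed the largest rise from GV to MII of the set relative to other messages, which in controls ERCC scaling turned into a fall (-0.46, adjusted p = 0.0101). GV levels were 50.04 to 94.8 CPM (median 70.9) in control and 46.1 to 91.6 CPM (median 79.0) in Dis3 cKO, with a log2 change of 0.02 (adjusted p = 0.943). At GV3h they were 71.2 to 100.5 CPM in control and 58.6 to 85.8 CPM in Dis3 cKO, and a fit of these 2 groups alone called the change of -0.19 (adjusted p = 0.0341). MII eggs held 148 to 208 CPM (median 196) in control and 158 to 283 CPM (median 239) in Dis3 cKO. All 24 eggs lay above all 47 GV and GV3h oocytes. The MII difference between genotypes was 0.26 and just missed the threshold (adjusted p = 0.0541). Without egg 15 it was 0.28 and passed (adjusted p = 0.0326), and without eggs 7, 11, 12 and 15 it was 0.37 (adjusted p = 0.00472). ERCC scaling gave 0.60 (adjusted p = 0.000949).

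In RiboMinus libraries Aurkc was 31.97 to 55.7 CPM in adult control, 26.0 to 47.4 CPM in adult Dis3 cKO and 16.2 to 34.3 CPM over the 4 p20 groups. With TMM no comparison of a knockout with its control passed there, and with ERCC scaling adult Dis3 cKO was lower (-0.63, adjusted p = 0.0174). The dcKO (16.2 to 29.6 CPM) was lower than Dis3 cKO (23.0 to 34.3 CPM) by -0.32 (SE 0.13, adjusted p = 0.0360), a call that was lost in 6 of 8 other settings: ERCC scaling (-0.03, adjusted p = 0.923), DESeq2 size factors (adjusted p = 0.0503), the replicate block (0.0541), the compared groups alone (0.0564), no filter on low counts (0.109) and sums per tag (0.159).

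The balance of the 2 meiotic Aurora messages was read within each library as the log2 ratio of Aurkc to Aurka counts, which no scaling alters; its level depends on gene length, so only its change is read. It averaged -1.97 ± 0.22 (SD, n = 8) in GV control, -1.85 ± 0.18 at GV3h and -0.18 ± 0.22 at MII. In Dis3 cKO it averaged -1.58 ± 0.30 (n = 15), -1.40 ± 0.12 (n = 16) and 0.21 ± 0.23 (n = 16). MII and GV ranges did not overlap in either genotype, -0.42 to 0.30 against -2.29 to -1.69 in controls. The GV ranges of the genotypes did overlap, with -2.27 to -1.28 in Dis3 cKO. In adult RiboMinus oocytes the ratio averaged -2.46 ± 0.20 in control and -2.34 ± 0.25 in Dis3 cKO (n = 8 each). At p20 it averaged -2.75 ± 0.23 in control, -2.38 ± 0.23 in Dis3 cKO, -2.84 ± 0.23 in Exosc10 cKO and -2.69 ± 0.35 in dcKO (n = 8 each). This ratio was not tested.

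**Figure D2:**
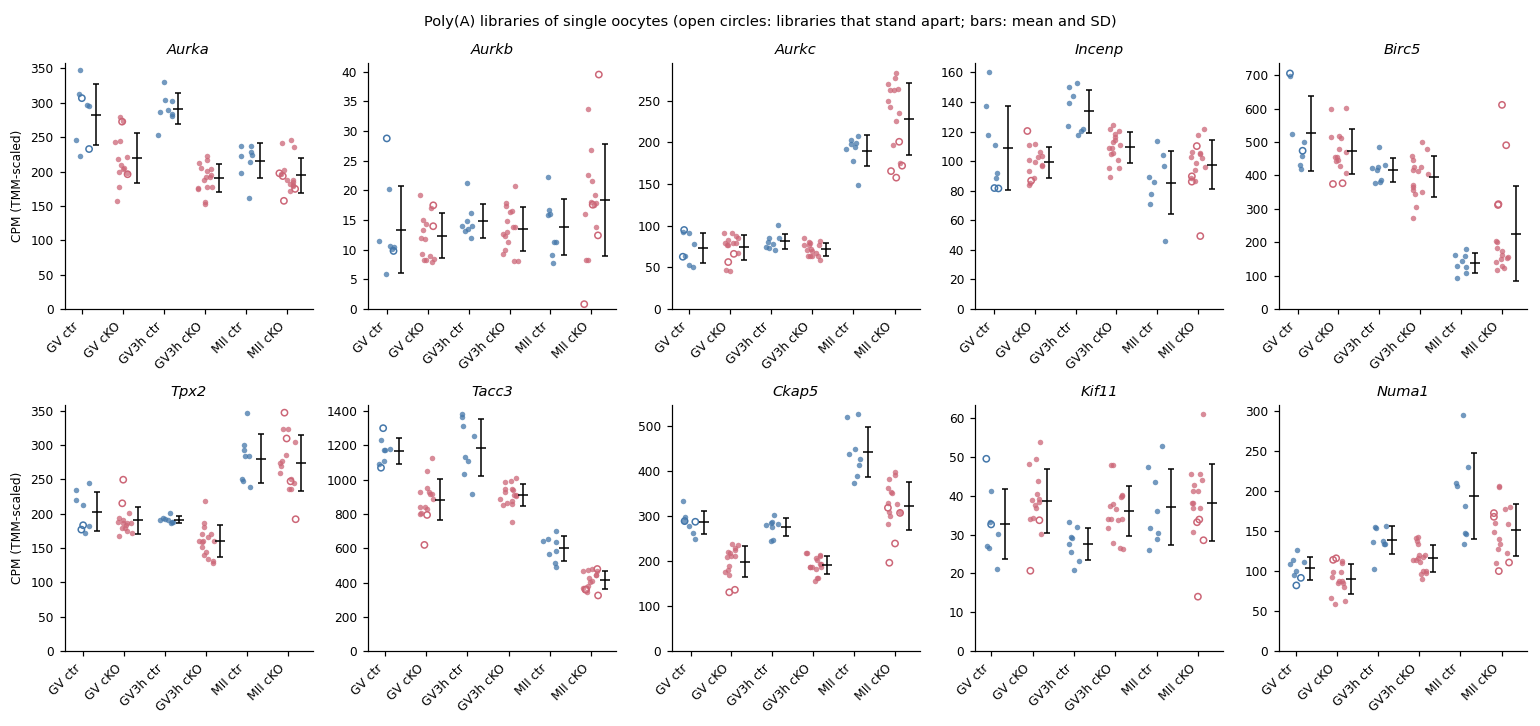
CPM (TMM-scaled) of each member in every poly(A) library, by stage and genotype, with control in blue and Dis3 cKO in red. Points are oocytes, open circles are libraries that stood apart, and black bars are mean and SD. Aurkc rises and Birc5 and Tacc3 fall at MII, and MII Dis3 cKO holds 4 eggs with Birc5 of 312 to 611 CPM.

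INCENP is the scaffold that activates Aurora B and C, and its message passed against control in 1 knockout comparison, at GV3h. It was 81.5 to 161 CPM in GV control and 83.8 to 120.4 CPM in GV Dis3 cKO. At GV3h it was 117 to 153 CPM (median 131) in control and 89.1 to 125 CPM (median 110.1) in Dis3 cKO, with all 16 knockout oocytes below the control mean. That change was -0.29 (SE 0.11, adjusted p = 0.0246). ERCC scaling gave -0.33 (adjusted p = 0.218), and the title number as a block gave -0.27 (adjusted p = 0.0639). MII eggs held 46.2 to 114 CPM in control and 49.3 to 122 CPM in Dis3 cKO (0.19, adjusted p = 0.156), a change that passed without egg 15 (0.24, adjusted p = 0.0467) and without eggs 7, 11, 12 and 15 (0.26, adjusted p = 0.0406) but not without all 8 poly(A) libraries that stood apart (0.23, adjusted p = 0.0590). Without those 8 the Incenp effect at MII exceeded that at GV (0.50, adjusted p = 0.0139). In RiboMinus libraries Incenp was 275 to 354 CPM in adult control and 263 to 325 CPM in adult Dis3 cKO, and none of its knockout contrasts passed there with TMM, while ERCC scaling called adult Dis3 cKO lower (-0.57, adjusted p = 0.0160).

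Birc5, which encodes survivin, was the member whose knockout effect differed between MII and GV with TMM over all libraries, a call that rested on 4 eggs. Levels were 421 to 705 CPM (median 486) in GV control, 374 to 602 CPM (median 455) in GV Dis3 cKO, 378 to 484 CPM (median 420.1) in GV3h control and 273 to 500.1 CPM (median 409) in GV3h Dis3 cKO. MII control eggs held 91.8 to 180.4 CPM (median 136). In MII Dis3 cKO, 12 eggs held 116 to 203 CPM, and eggs 7, 11, 12 and 15 held 611, 490.4, 312 and 314 CPM. The log2 change at MII was 0.72 (SE 0.18, adjusted p = 0.000996), and the effect at MII minus that at GV was 0.88 (SE 0.25, adjusted p = 0.0128). Without those 4 eggs the values were 0.20 (adjusted p = 0.154) and 0.35 (adjusted p = 0.114). Eggs 7 and 11 had a median correlation of 0.914 and 0.898 with GV Dis3 cKO oocytes, against 0.859 to 0.872 in the 12 eggs that did not stand apart. Egg 15 had the lowest ratio of gene to ERCC counts, 14.4, where the other 15 eggs had 48.6 to 81.0. The part of these features in the Birc5 result was not tested. In RiboMinus libraries Birc5 was 183 to 294 CPM in adult control and 148 to 279 CPM in adult Dis3 cKO, and with TMM no comparison of a knockout with its control passed. Within adult Dis3 cKO, tag AM1713 held 233 to 279 CPM and tag AM1757 148 to 220 CPM, without overlap. The control tags AM1758 and AM1759 held 183 to 271 and 189 to 294 CPM. ERCC scaling called adult Dis3 cKO lower (-0.63, adjusted p = 0.0432). Without the libraries that stood apart, the dcKO change of -0.15 passed (adjusted p = 0.0456).

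Tpx2 encodes the activator of Aurora A. Its level was 171 to 245 CPM (median 198) in GV control and 168 to 249.6 CPM (median 186) in GV Dis3 cKO, a log2 change of -0.09 (adjusted p = 0.474). GV3h controls were tight at 187 to 201 CPM, and GV3h Dis3 cKO oocytes spread from 129 to 218 CPM (median 159.8), with 15 of 16 below the lowest control. The change was -0.26 (SE 0.08, adjusted p = 0.00915), and -0.32 with ERCC scaling (adjusted p = 0.0901). MII eggs of both genotypes overlapped, at 239 to 347 and 192 to 347 CPM (-0.03, adjusted p = 0.769). Adult RiboMinus oocytes showed 300.5 to 327 CPM in control and 312 to 362 CPM in Dis3 cKO, a log2 change of 0.11 that did not pass with TMM (adjusted p = 0.0932) and was -0.44 with ERCC scaling (adjusted p = 0.0363). At p20, Tpx2 was 219 to 274 CPM in control and 223 to 277 CPM in Dis3 cKO. Exosc10 cKO oocytes held 266 to 358 CPM and dcKO oocytes 226 to 311 CPM. No knockout passed against control for Tpx2 at p20 with TMM.

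TACC3 and CKAP5 act together on spindle microtubules, and both messages were lower in Dis3 cKO at all 3 poly(A) stages. Tacc3 was 1069.8 to 1300.4 CPM (median 1172) in GV control and 619.6 to 1129 CPM (median 886) in GV Dis3 cKO. At GV3h it was 915 to 1382 CPM (median 1193) and 753 to 1011 CPM (median 913). In MII eggs controls held 489 to 702 CPM (median 612) and Dis3 cKO eggs 325 to 479 CPM (median 416). The MII groups did not overlap, and at GV 14 of 15 knockout oocytes lay below the lowest control. The log2 changes were -0.40 (SE 0.08, adjusted p = 3.25e-05) at GV, -0.38 (SE 0.08, adjusted p = 3.25e-05) at GV3h and -0.53 (SE 0.08, adjusted p = 2.27e-08) at MII. With ERCC scaling they were -0.64 (adjusted p = 0.00811), -0.39 (adjusted p = 0.103) and -0.14 (adjusted p = 0.562).

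Ckap5 was 249 to 333 CPM (median 288) in GV control and 131 to 237 CPM (median 211) in GV Dis3 cKO. At GV3h it was 245 to 302 CPM (median 281) and 155 to 219 CPM (median 191). Neither pair of groups overlapped. MII controls held 374 to 526.3 CPM (median 433) and MII Dis3 cKO eggs 196 to 397 CPM (median 323), with 13 of 16 below the lowest control. The log2 changes were -0.53 (SE 0.09, adjusted p = 5.21e-06), -0.52 (SE 0.09, adjusted p = 2.41e-06) and -0.46 (SE 0.09, adjusted p = 2.58e-05). ERCC scaling gave -0.78 at GV, -0.55 at GV3h and -0.10 at MII, and the last did not pass (adjusted p = 0.673).

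In adult RiboMinus GV oocytes both messages were lower too, by tests over oocytes; with counts summed per tag neither passed (Tacc3 -0.29, adjusted p = 0.268; Ckap5 -0.38, adjusted p = 0.344). Tacc3 was 605 to 696 CPM (median 639) in control and 479 to 571 CPM (median 530.3) in Dis3 cKO, without overlap, a change of -0.25 (SE 0.05, adjusted p = 0.0009). Ckap5 was 353 to 399 CPM (median 360) in control. In Dis3 cKO it was 169, 236, 236 and 293 CPM under the tag AM1713 and 315 to 347 CPM under AM1757, all below the controls. The change was -0.36 (SE 0.11, adjusted p = 0.0151), and without AM1713_1, the lowest, -0.29 (adjusted p = 0.00872). At p20, Tacc3 was 512 to 685 CPM in control, 491 to 669 CPM in Dis3 cKO, 569 to 691 CPM in Exosc10 cKO and 428 to 615 CPM in dcKO, and among the 3 knockouts the dcKO alone passed against control (-0.26, SE 0.08, adjusted p = 0.00419). That call was lost with ERCC scaling (-0.30, adjusted p = 0.167) and with counts summed per tag (-0.27, adjusted p = 0.096). Within the dcKO the oocytes of tag 1 held 428 to 486 CPM and those of tag 2 518 to 615 CPM. Ckap5 at p20 was 339 to 401 CPM in control, 334 to 403 CPM in Dis3 cKO, 304 to 431 CPM in Exosc10 cKO and 323 to 385 CPM in dcKO, and no knockout comparison passed. The Dis3 effect on Ckap5 was more negative in adult GV than in p20 oocytes (-0.40, SE 0.12, adjusted p = 0.0263; -0.63 with ERCC scaling, adjusted p = 0.178).

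Kif11, the sliding motor, was the member with higher levels in several knockout comparisons. In poly(A) GV it was 21.2 to 49.5 CPM (median 31.4) in control and 20.7 to 53.7 CPM (median 38.4) in Dis3 cKO (0.24, adjusted p = 0.273). GV3h levels were 21.0 to 33.1 CPM (median 28.3) in control and 26.2 to 47.9 CPM (median 35.4) in Dis3 cKO, with 12 of 16 above the highest control. The change was 0.38 (SE 0.15, adjusted p = 0.0357), a call lost without the filter on low counts (adjusted p = 0.0666), with title numbers 1 to 8 alone (adjusted p = 0.0888), with the title number as a block (adjusted p = 0.111) and with ERCC scaling (adjusted p = 0.253). Adult RiboMinus levels were 29.5 to 36.5 CPM in control and 34.4 to 48.1 CPM in Dis3 cKO, all 8 above the control mean, a change of 0.31 (SE 0.09, adjusted p = 0.0124) that became -0.27 with ERCC scaling (adjusted p = 0.261) and did not pass without the filter on low counts (adjusted p = 0.0518) or with counts summed per tag (adjusted p = 0.428). At p20, Kif11 was 25.5 to 51.3 CPM (median 32.01) in control, 36.2 to 54.6 CPM (median 46.0) in Dis3 cKO, 32.3 to 56.2 CPM (median 37.1) in Exosc10 cKO and 39.9 to 73.4 CPM (median 58.0) in dcKO. The dcKO rise was 0.72 (SE 0.14, adjusted p = 6.64e-05), with 6 of 8 oocytes above the highest control, and it was also 0.56 with ERCC scaling (adjusted p = 0.0450). Single knockouts gave 0.42 for Dis3 (adjusted p = 0.0692) and 0.26 for Exosc10 (adjusted p = 0.310). Without the libraries that stood apart the Dis3 change was 0.50 and passed (adjusted p = 0.0220), as did dcKO against Dis3 cKO (0.30, adjusted p = 0.0488). The dcKO effect minus the sum of the single effects was 0.05 (adjusted p = 0.877).

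Numa1, the pole organiser, was lower in Dis3 cKO eggs and adult oocytes. It was 82.2 to 127 CPM in GV control and 58.4 to 116 CPM in GV Dis3 cKO, 103 to 157 and 90.3 to 143 CPM at GV3h (called lower without the libraries that stood apart, -0.32, adjusted p = 0.0174), and 134 to 296 CPM (median 194) and 100.1 to 206 CPM (median 154) at MII. At MII the ranges overlapped, with 14 of 16 knockout eggs below the control mean, and the change was -0.36 (SE 0.12, adjusted p = 0.0120), which ERCC scaling set at 0.02. Adult RiboMinus levels were 218 to 280 CPM (median 236) in control and 124 to 227 CPM (median 172) in Dis3 cKO, with 7 of 8 below the lowest control. The change was -0.47 (SE 0.10, adjusted p = 0.00244), and -0.96 with ERCC scaling, but with counts summed per tag it did not pass (-0.51, adjusted p = 0.139). At p20 the levels were 233 to 301 CPM in control and 222 to 321 CPM in Dis3 cKO (0.02, adjusted p = 0.941), and the adult effect exceeded that at p20 (-0.51, SE 0.14, adjusted p = 0.0124; -0.68 with ERCC scaling, adjusted p = 0.294). In Exosc10 cKO, tag 1 held 258 to 298 CPM and tag 2 held 175 to 244 CPM, and the group did not pass against control (-0.17, adjusted p = 0.311).

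Counted by comparison, 5 of 10 members passed in adult RiboMinus Dis3 cKO (Kif11 higher, and Aurka, Tacc3, Ckap5 and Numa1 lower), against 28.1% of 15334 genes (15.7% higher, 12.4% lower). ERCC scaling gave 9, all lower, against 44.6% of genes (40.1% lower), where the gene-to-ERCC ratio was 152 to 361 in Dis3 cKO and 336 to 487 in control. At p20 the count was 1 in Dis3 cKO (Aurka lower), against 7.37% of 15882 genes (3.76% lower), 0 in Exosc10 cKO, against 7.45%, and 3 in dcKO (Kif11 higher, Aurka and Tacc3 lower), against 53.7% (26.6% higher, 27.1% lower). With ERCC scaling the counts were 1 (Aurka lower), 0 and 1 (Kif11 higher), against 6.09% (5.31% lower), 2.29% and 38.2% (17.8% higher). For the 0 in Exosc10 cKO, edgeR had 2 members at an unadjusted p under 0.05, and DESeq2 called 0. The dcKO differed from Dis3 cKO in 2 members, both lower, against 51.5% of genes (25.5% lower), and from Exosc10 cKO in 3, Kif11 higher and Aurka and Tacc3 lower, against 49.2% (24.2% higher, 25% lower). With ERCC scaling both counts were 0 in edgeR, against 36.9% and 31.6%. No member departed from the sum of the single effects in edgeR, against 31.4% of genes (13.6% with ERCC scaling, also with 0 members), with 1 at an unadjusted p under 0.05 and 0 called by DESeq2. When the counts of each tag were summed, leaving 2 sums per group, the calls were 0 in adult Dis3 cKO (2 at an unadjusted p under 0.05 in edgeR), 0 in p20 Dis3 cKO (2 unadjusted) and 2 in dcKO (Aurka and Kif11). Between adult and p20 oocytes the Dis3 effect differed in 2 members, both more negative in adults, against 9.32% of 17267 genes (3.98% lower), and in 0 with ERCC scaling, against 3.38%. It differed between MII and GV in 1, Birc5, against 13.2% of genes (9.28% higher). It differed between GV3h and GV in 0 members, against 2.04% (0 with ERCC scaling, against 1.38%), with 1 at an unadjusted p under 0.05 and 0 by DESeq2. The 3 p20 comparisons with control share the control libraries.

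**Figure D3:**
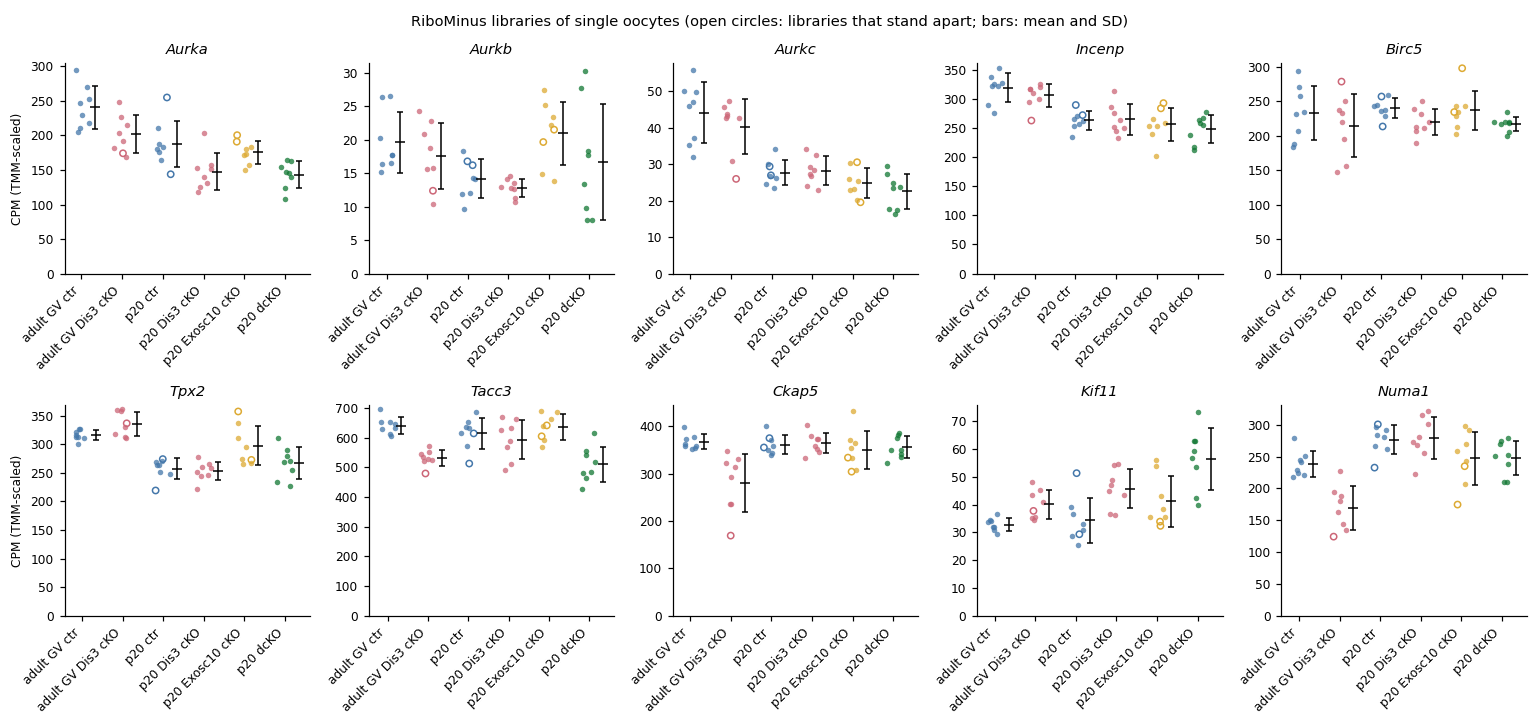
CPM (TMM-scaled) of each member in every RiboMinus library, by age and genotype. Points are oocytes, open circles are libraries that stood apart, and black bars are mean and SD. Adult Dis3 cKO lies low for Tacc3, Ckap5 and Numa1, and the p20 dcKO lies high for Kif11, at 39.9 to 73.4 CPM against 25.5 to 51.3 CPM in control.

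Most members changed from GV to MII relative to other messages. Between GV and GV3h controls 0 members passed in edgeR, against 2.71% of genes (0 with ERCC scaling, against 0.679%), with 2 at an unadjusted p under 0.05 and 1 called by DESeq2 (Numa1, 0.44). In Dis3 cKO, 3 passed between GV and GV3h, against 17.3% (7.42% higher, 9.88% lower): Numa1 higher (0.36), Tpx2 (-0.25) and Aurka (-0.21) lower. Without the libraries that stood apart Birc5 was lower too (-0.31, adjusted p = 0.00381), and without the filter on low counts the Aurka call was lost (adjusted p = 0.134). ERCC scaling called 5 higher there, against 37% (36.1% higher). From GV to MII, 8 of 10 passed in controls, against 58.5% of genes (22.7% higher, 35.8% lower), and 8 in Dis3 cKO, against 63.3% (24.8% higher, 38.5% lower). In controls, Aurkc rose by 1.37 (SE 0.13, adjusted p = 7.41e-15), Numa1 by 0.90 (SE 0.14), Ckap5 by 0.63 (SE 0.11) and Tpx2 by 0.46 (SE 0.10) relative to other messages. Birc5 fell by 1.94 (SE 0.21, adjusted p = 1.35e-12), Tacc3 by 0.96 (SE 0.09, adjusted p = 2.59e-15), Aurka by 0.39 (SE 0.10) and Incenp by 0.35 (SE 0.13), the last lost in a fit of the 2 groups alone (adjusted p = 0.161). For 5 of the 8 the GV and MII ranges did not overlap. In Dis3 cKO the changes were 1.62 for Aurkc (SE 0.10, adjusted p = 3.81e-25), 0.74 for Numa1, 0.70 for Ckap5, 0.58 for Aurkb, 0.52 for Tpx2, -1.09 for Tacc3, -1.06 for Birc5 and -0.17 for Aurka. The Aurkb call was lost with the title number as a block (0.49, adjusted p = 0.0581). Without the GV control libraries 1 and 2 and the others that stood apart, Kif11 also passed in controls (0.39, adjusted p = 0.0212). The Aurka call in Dis3 cKO was lost without the libraries that stood apart (-0.05, adjusted p = 0.564), and the Birc5 change was -1.58 without eggs 7, 11, 12 and 15. That Aurka call was also lost without those eggs (adjusted p = 0.102), without the filter on low counts (0.2455) and in a fit of the 2 groups alone (0.2055). DESeq2 did not call it (adjusted p = 0.057), nor did edgeR with DESeq2 size factors (0.063).

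Against ERCC counts most members, like most genes, were lower at MII than at GV. In controls all 10 members were called lower at MII, against 87.8% of all genes (87.5% lower), from -0.46 for Aurkc (adjusted p = 0.0101) to -3.79 for Birc5, and the median of the members was -1.77 against -2.12 over all genes, so the count is near the share of all genes. In Dis3 cKO, 8 were lower, from -0.50 for Numa1 to -2.34 for Tacc3, and Aurkc alone was higher (0.41, adjusted p = 0.00194), against 83.6% of genes (82.3% lower, 1.31% higher). Aurkc counts per 1000 ERCC counts averaged 10.1 ± 1.92 in GV control and 7.30 ± 0.81 in MII control (SD, n = 8 each), and 8.34 ± 1.52 (n = 15) and 11.1 ± 2.76 (n = 16) in Dis3 cKO. Birc5 fell from 73.0 ± 14.4 to 5.28 ± 1.19 per 1000 ERCC counts in controls, and Tacc3 from 164 ± 28.1 to 23.0 ± 2.49. With this scaling the Dis3 effect was higher at MII than at GV in 7 members, from 0.65 for Tpx2 to 1.61 for Birc5, where the median of all genes was 0.68 and 30.1% of genes were called (29.4% higher).

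**Figure D4:**
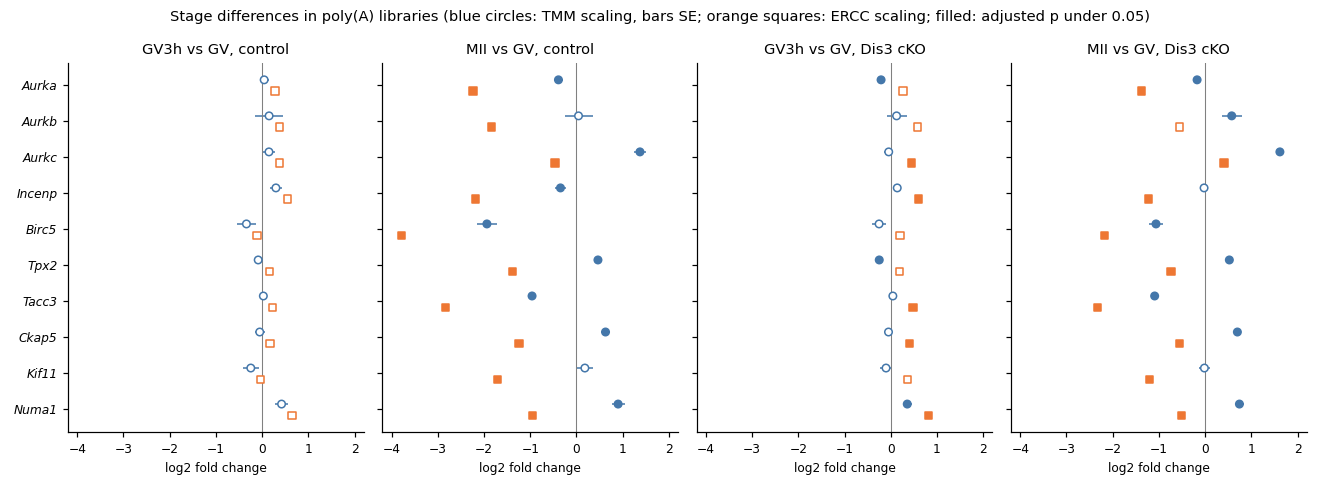
Log2 fold change of each member between stages in poly(A) libraries, with TMM scaling (blue circles, bars are SE) and ERCC scaling (orange squares, no error drawn), in control and Dis3 cKO. Filled symbols passed an adjusted p of 0.05 in edgeR. From GV to MII in controls the blue symbols lie on both sides of 0, from -1.94 for Birc5 to 1.37 for Aurkc, and every orange symbol lies left of 0.

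Age was compared in RiboMinus oocytes. Relative to other genes, 4 members were higher in adult than in p20 controls, against 19.1% of genes (8.69% higher): Aurkc by 0.67 (SE 0.13, adjusted p = 0.000208), Aurka by 0.36 (SE 0.10, adjusted p = 0.0092), Tpx2 by 0.30 (SE 0.06, adjusted p = 0.000791) and Incenp by 0.28 (SE 0.07, adjusted p = 0.00278). Tpx2 did not overlap, at 300.5 to 327 CPM in adult and 219 to 274 CPM in p20 oocytes. With counts summed per tag none of the 4 passed in edgeR (adjusted p = 0.176 for Aurka, 0.0673 for Aurkc, 0.205 for Tpx2 and 0.202 for Incenp), with 4 of the 10 members at an unadjusted p under 0.05. In Dis3 cKO the same 4 were higher (0.51, 0.45, 0.41 and 0.21) and Numa1 (-0.72) and Ckap5 (-0.38) were lower, against 37.5% of genes (19.1% higher, 18.3% lower). With counts summed per tag Aurka, Tpx2 and Numa1 passed, and Aurkc (adjusted p = 0.0538), Incenp (0.245) and Ckap5 (0.109) did not. Scaled to ERCC counts all 10 were lower in adult oocytes of both genotypes, against 86.1% (85.7% lower) in controls and 82.2% (81.1% lower) in Dis3 cKO, from -1.04 for Aurkc to -1.91 for Numa1 in controls, where the median of all genes was -1.69.

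The other genes of spindle assembly were read from 6 lists of 88 genes: Aurora partners and passenger subunits, motors, Ran-cycle factors, organising-centre and nucleation factors, microtubule stabilisers, and tubulins. These lists were chosen with earlier results of these data known, so their counts beside the shares of all genes are a description. Of 85 tested in poly(A) libraries, 5 rose and 16 fell in Dis3 cKO at GV (13.6% and 8.33% of all genes did), 7 and 31 at GV3h (22.9% and 15.7%), and 13 and 25 at MII (27.3% and 14.8%), with median changes of -0.14, -0.24 and 0.00 against 0.04, 0.07 and 0.16 over all genes. With ERCC scaling 1 rose and 24 fell at GV (7.27% and 13.3% of all genes), 2 and 14 at GV3h (17.5% and 10.6%), and 27 rose and 4 fell at MII (37.6% and 4.31%). At MII, 9 of 18 motors fell and 0 rose, but 3 fell and 3 rose with ERCC scaling. Of 10 tubulins 4 rose and 0 fell there, and 9 rose and 0 fell with ERCC scaling. By size, the largest falls there were in the nuclear export receptor Xpo1 (47.7 ± 8.26 against 117 ± 26.1 CPM, -1.29), the Ran GTPase activator Rangap1 (-1.29) and the dynein heavy chain Dync1h1 (-1.25), and the largest rises in the augmin subunits Haus1 (10.6 ± 8.78 against 1.73 ± 1.33 CPM, 2.60) and Haus8 (1.20) and in importin Kpna2 (1.64). With ERCC scaling the calls of Rangap1 (-0.99, adjusted p = 0.0587) and Dync1h1 (-0.78, adjusted p = 0.169) were lost, and the other 4 kept their direction and call. From GV to MII in controls 30 of 85 rose and 35 fell (22.7% and 35.8% of all genes), and 8 of 10 tubulins fell, Tuba1b most (-3.72), beside Kpna2 (-3.19) and Haus1 (-3.06). The largest rises were in the microtubule-binding protein Map4 (2.73), the gamma-tubulin complex subunit Tubgcp4 (1.44) and the plus-end stabiliser Clasp2 (1.44). Map4 averaged 42.5 ± 72.4 CPM in GV control, and without the libraries that stood apart its change was 4.18. With ERCC scaling 83 of the 85 fell and 0 rose (87.5% and 0.334% of all genes), and those 3 changes were 0.89 (adjusted p = 0.169), -0.40 (adjusted p = 0.1195) and -0.43 (adjusted p = 0.0221).

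In RiboMinus libraries 7 of 86 rose and 22 fell in adult Dis3 cKO, where 15.7% and 12.4% of all genes did (median -0.15 against 0.03). In p20 dcKO 9 of 85 rose and 43 fell, where 26.6% and 27.1% of all genes did (median -0.26 against -0.01). The single knockouts at p20 gave 4 up and 2 down for Dis3 (3.61% and 3.76% of all genes) and 2 up and 8 down for Exosc10 (3.95% and 3.5%). With ERCC scaling the counts were 0 up and 63 down in adult Dis3 cKO (4.56% and 40.1% of all genes), 5 and 31 in dcKO (17.8% and 20.4%), 2 and 6 in p20 Dis3 cKO (0.781% and 5.31%), and 1 and 2 in Exosc10 cKO (1.35% and 0.944%). In the dcKO, 13 of 18 motors fell (9 with ERCC scaling), among them the midzone kinesin Kif23 (262 ± 88.9 against 704 ± 58.5 CPM, -1.41). Map4 fell in adult Dis3 cKO (-1.38; 285 ± 31.98 against 750.4 ± 33.4 CPM) and in p20 dcKO (-1.53). Also in adult Dis3 cKO the plus-end protein Mapre3 (4.58 ± 2.90 against 14.4 ± 1.88 CPM, -1.63) and Haus8 (-1.02) fell, and these 3 falls kept their call with ERCC scaling. The largest rises there, in the augmin subunit Haus7 (0.58), the centriole scaffold Cep152 (0.51) and the dynein regulator Nde1 (0.45), were lost with ERCC scaling (0.05, 0.04 and -0.17). Nusap1, a Ran-regulated microtubule binder, fell in the dcKO (-1.21), and Haus2 (1.71), Tubgcp6 (1.38) and Tacc1 (1.02) rose. Each of the dcKO changes named kept its direction and its call with ERCC scaling.

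Across the 71 poly(A) libraries, which span 3 stages and share their depth and scaling, the pattern of Aurkc was most like that of Gm26819 (Pearson r = 0.961 of log CPM over 10363 genes compared), Med10 (0.961) and Btg4 (0.956), the last a CCR4-NOT adaptor of maternal mRNA decay. Aurka was most like Spop (0.754), Slc4a1ap (0.698) and Methig1 (0.694), and Aurkb like Leprot (0.702), Scamp2 (0.691) and Rpn1 (0.679). Within the set, Aurkc and Tpx2 varied together (r = 0.81), as did Tacc3 and Birc5 (0.69), and Aurkc and Tacc3 varied oppositely (-0.85). These values pool the 3 stages and both genotypes, were not read within a stage and carry no test.

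Chromatin was read at the 7 members with a start in the promoter table, which for Numa1 lies well inside the gene. A Pol II peak within 1 kb of the start was listed for 0 of the 7 in each of 3 adult GV control libraries, where 2.88% to 5.31% of 27025 genes had one. In p20 control libraries it was listed for 0, 3 (Aurkc, Tacc3 and Numa1) and 1 (Numa1) of the 7, against 8.98% to 10.8% of genes. In adult Dis3 cKO libraries Tacc3 had a peak in 2 of 3, against 4.57% to 14.6% of genes. These 2 libraries had 88697 and 122606 peaks and the third 30311, against 19697 to 35843 in adult controls, and the part of that difference in the Tacc3 peak was not tested. H3K27me3, the repressive Polycomb mark, had a peak at Aurkc in 1 of 3 adult control libraries and at no other of the 7 starts in the 12 libraries, against 18.4% to 33.7% of genes. A start with no listed peak was not called at this depth, which does not show that signal was absent.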

How the data were processed

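The authors' deposited gene counts (whole reads per gene, 1 file per library) and ERCC counts were used as deposited; per the submitters' processing notes, tools included cutadapt 2.5, STAR 2.7.2a, SAMtools 1.9, HTSeq 0.9.1 and SEACR, with build mm10. CUT&Tag peak lists are the authors' own, per library, with a total and a maximum signal, used to filter peaks; per the series text, reads were first sampled to an equal number. Symbols were matched for 99.7% of poly(A) and 99.4% of RiboMinus IDs. The quasi-likelihood F test of edgeR 4.0.16 (R 4.3.3) was run on all genes after filterByExpr and TMM, 2-sided, with Benjamini-Hochberg adjustment. The 6 poly(A) groups shared a fit, the adult pair and the p20 groups had 1 each, and comparisons across age used all 6 RiboMinus groups. SE is the log2 change over the square root of F. The code was tested on simulated data. CPM used TMM-scaled libraries. Named genes were all 10 members, the targeted genes and, in 4 comparisons, the 3 largest called changes each way of the wider lists at a mean of 1 CPM or more. Members, lists and tests were chosen with earlier results of these data known. Reads carry no molecular identifiers. IgG samples were not analysed here. Alternatives included ERCC scaling, DESeq2 1.42.0, other filters, samples and blocks.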

Additional observations from a re-analysis of the deposited data

Results flagged for a closer look

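In 90 groups of a member's values, 4 held a single value far from the rest, where chance gives about 1 in 20. Numa1 in GV3h control library 5 was 103 CPM, below the next value of 134 CPM, and Aurkb in that library was 21.3 CPM, above the next of 16.3 CPM. Aurka in p20 Dis3 cKO oocyte 2_3 was 204 CPM, above the next of 157 CPM. Birc5 in p20 Exosc10 cKO oocyte 2_4, which stood apart, was 298 CPM, above the next of 244 CPM.

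In 3 cases the Dis3 effect differed between groups by an interaction test in edgeR. The Birc5 effect was higher at MII than at GV by 0.88 (adjusted p = 0.0128), and by 0.35 (adjusted p = 0.114) without MII eggs 7, 11, 12 and 15. The adult minus p20 difference of the effect was -0.51 for Numa1 (adjusted p = 0.0124) and -0.40 for Ckap5 (adjusted p = 0.0263). With counts summed per title tag neither passed (adjusted p = 0.327 and 0.476).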

How the results depend on the processing

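Scaling to ERCC counts, which moves the median of all genes from -0.27 to -2.12 between GV and MII controls, turned 30 directions where the member passed under either scaling, given next, and 37 where it passed under neither. In Dis3 cKO, Numa1 at MII became 0.018, and Tpx2 and Kif11 in adult RiboMinus oocytes -0.44 and -0.27. From GV to MII, Aurkb, Aurkc, Tpx2, Kif11, Numa1 and Ckap5 became -1.83, -0.46, -1.39, -1.72, -0.95 and -1.24 in control, and Aurkb, Tpx2, Numa1 and Ckap5 -0.56, -0.74, -0.50 and -0.56 in Dis3 cKO. From GV to GV3h in Dis3 cKO, Aurka, Aurkc, Tpx2 and Ckap5 became 0.26, 0.45, 0.19 and 0.40. Tacc3 in dcKO against Dis3 cKO became 0.069. From p20 to adult, Aurka, Aurkb, Aurkc, Tpx2, Tacc3, Incenp and Ckap5 became -1.32, -1.26, -1.04, -1.39, -1.62, -1.42 and -1.67 in control, and Aurka, Aurkb, Aurkc, Tpx2 and Incenp -1.47, -1.48, -1.37, -1.50 and -1.68 in Dis3 cKO. The count of members called became 2 for Dis3 cKO at GV3h, 5 for GV3h against GV in Dis3 cKO, 7 for the MII minus GV effect, 9 for adult Dis3 cKO, 1 for dcKO, 0 for dcKO against either single knockout, 10 for adult against p20 in both genotypes and 0 for the adult minus p20 effect. The cause was not tested.

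Other settings moved fewer counts. DESeq2 called 1 member for GV3h against GV in control and 2 for p20 Dis3 cKO, and its size factors gave 1 for dcKO against Dis3 cKO. DESeq2 also called 3 for dcKO against Dis3 cKO (Kif11 gained). From GV to MII in Dis3 cKO, DESeq2 and its size factors each gave 7, with Aurka lost. Fitting the compared groups alone gave 2 for GV3h against GV in control, 8 for Dis3 cKO at GV3h (Aurkc and Numa1 gained), 6 and 7 for adult against p20 in control and Dis3 cKO, 7 for GV to MII in either genotype (Incenp lost in control, Aurka in Dis3 cKO), 4 for GV3h against GV in Dis3 cKO, 0 for the MII minus GV effect, 2 for p20 Dis3 cKO, 1 for Exosc10 cKO (Aurkb) and 1 for dcKO against Dis3 cKO. Without the low-count filter 3 passed in adult Dis3 cKO, 0 for dcKO against Dis3 cKO and 1 for the adult minus p20 effect, and Incenp from GV to MII in control was lost (-0.27, adjusted p = 0.125). In that setting 5 passed for Dis3 cKO at GV3h (Kif11 lost) and 2 for GV3h against GV in Dis3 cKO (Aurka lost). From GV to MII in Dis3 cKO 7 passed, with Aurka lost (-0.12, adjusted p = 0.2455). Leaving out the libraries that stood apart, chosen after seeing the data, gave 7 for Dis3 cKO at GV and 7 at GV3h, 9 and 7 for GV to MII in control and Dis3 cKO, 4 for GV3h against GV in Dis3 cKO, 4 for adult Dis3 cKO, 4 for dcKO, and 3 and 2 for dcKO against Dis3 cKO and Exosc10 cKO. Leaving out MII eggs 7, 11, 12 and 15, also chosen after seeing the data, or keeping title numbers 1 to 8 gave 0 for the MII minus GV effect. With counts summed per title tag the edgeR counts were 0 for adult Dis3 cKO, p20 Dis3 cKO, dcKO against each single knockout, adult against p20 in control and the adult minus p20 effect, with 2, 2, 0, 3, 4 and 1 at an unadjusted p under 0.05, and 3 for adult against p20 in Dis3 cKO.

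Title numbers do not pair the oocytes: same-numbered deviations correlated by -0.123 to 0.172 in poly(A) and -0.227 to 0.154 in p20 libraries. With them as a replicate block the counts were 3, 5 and 4 for Dis3 cKO at GV, GV3h and MII. They were 0 for Dis3 cKO at p20, 3 for dcKO, 1 for dcKO against Dis3 cKO and 7 for GV to MII in Dis3 cKO. GV3h lost Incenp and Kif11 and gained Numa1, and GV to MII in Dis3 cKO lost Aurkb. No paired analysis was possible because of differing tags in adult RiboMinus groups and against p20. Peaks were listed in 7 cases of a member and a library within 1 kb of a start, 11 within 2 kb and 2 with only peaks above the median signal of their list. Levels per length were not run. Aurkb, at 6 to 435 reads in MII Dis3 cKO eggs, is the member whose depth limits precision most.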
